A study of Mus musculus with 4 samples.

Results

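The genes described here encode histone lysine demethylases and the enzymes that methylate lysines 4 and 36 of histone H3, with the shared core subunits of the H3K4 complexes and the H3K79 enzyme Dot1l. They were chosen by symbol from a list of 39, and all 39 were found among the 24421 gene rows of the count tables. They comprise 17 demethylases (erasers), 18 methyltransferases (writers) and 4 core subunits. The study compared the R1 line of mouse embryonic stem cells (ESCs) before (Undiff) and after (Day4) differentiation with retinoic acid (RA), on an Illumina platform with TruSeq libraries, with 2 replicates in each state. The labels name no genotype beyond the line. The methods describe Undiff as R1 cells kept with leukaemia inhibitory factor (LIF), whereas the labels call both states embryoid bodies. Day4 cells were grown as embryoid bodies without LIF for 4 days and then treated with RA for 4 days, at 2 µM according to the design text (the sample labels write 2 mM). The effect of RA cannot be told apart from those of embryoid body culture, LIF withdrawal and time, since no Day4 library without RA was analysed here, and all samples come from 1 cell line. The replicates were grown and treated separately according to the methods.

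Methyl groups on histone lysines are placed by SET domain enzymes (and by Dot1l, which has no SET domain) and removed by flavin-dependent or Jumonji C (JmjC) demethylases. Methylation of H3K4 marks promoters and enhancers, methylation of H3K36 marks intergenic regions and transcribed gene bodies, and methylation of H3K9 and H3K27 marks silent chromatin. Each residue is served by several paralogs, which differ in the complexes they join and in the methylation states they act on. Transcript levels are measured here, so nothing below is a measurement of enzyme activity or of the marks themselves.

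The 4 libraries held 32099074 to 47730944 counts on genes, and the members together took 0.503% to 0.510% of them in every library. The 10 markers of pluripotent cells were all DEGs (differentially expressed genes) lower in Day4, with a summed level of 5003 to 5031 CPM (counts scaled to a fixed library total) in Undiff and 21.1 to 26.7 in Day4. All 8 genes of the RA response were DEGs higher in Day4. Markers of other cell types moved with the state as well. All 7 endoderm genes were higher (7.07 to 8.50 summed CPM against 542 to 549), as were 7 of 8 genes of mesoderm and mesenchyme (46.0 to 50.8 against 1444 to 1557, with Hand1 lower) and 4 of 6 genes of blood and endothelium (147 to 149 against 333 to 350, with Pecam1 lower), while of 7 neural genes 2 were higher and 4 were lower (156 to 158 against 144 to 159). Afp was at 0 in both Undiff libraries, and no marker was at 0 in any Day4 library. The part of this change in cell composition in the members' results was not tested, and in bulk samples fewer cells of a type and less RNA per cell cannot be told apart. The share of fragments on no annotated gene also differed, at 12.1% and 13.2% in Undiff against 7.74% at most in Day4.

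Of the 39 members, 13 were DEGs (33.3%), 10 higher and 3 lower in Day4. A DEG had an adjusted p of at most 0.05 (edgeR quasi-likelihood test, Benjamini-Hochberg over all 19891 genes tested), a log2 fold change of 1 or more in either direction and a mean normalized count of 5 or more. By the same rule 42.8% of all genes tested were DEGs, 22.2% higher and 20.6% lower. All 39 members had a mean of at least 5, and among the 16472 genes that did, 51.7% were DEGs, 26.8% higher and 24.9% lower. Without the fold change minimum, 32 members passed on the adjusted p, 17 higher and 15 lower, against 75.6% of all genes tested and 86.9% of those with a mean of at least 5. The counts of the 2 states did not overlap for 38 members, the exception being Setd2, against 85.4% of all genes tested and 93.6% of those with a mean of at least 5. The median absolute log2 fold change was 0.63 over the members and 1.07 over the genes with a mean of at least 5, and the median signed change was 0.07 and 0.03, respectively.

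**Figure D1:**
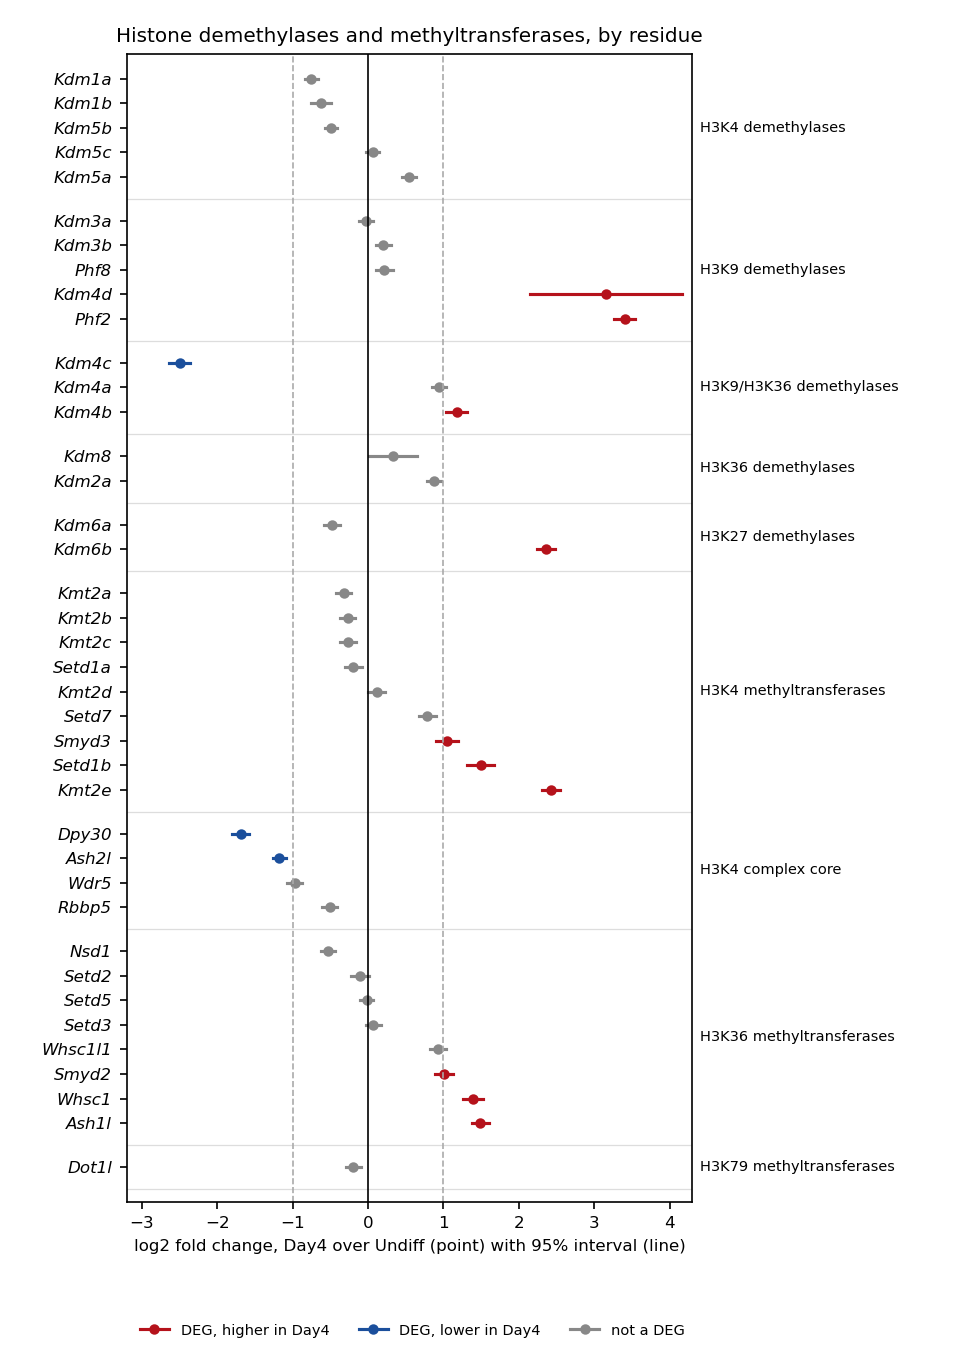
The log2 fold change of Day4 over Undiff (x axis) of each of the 39 members, grouped by the residue acted on, with its 95% interval from the edgeR fit as a line and dashed lines at -1 and 1. Phf2 at 3.40 is the highest point, Kdm4c at -2.50 is the lowest, and the 4 core subunits of the H3K4 complexes all lie below 0.

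The KDM4 demethylases remove di- and trimethylation of H3K9 and, except for Kdm4d, of H3K36. They moved in opposite directions. The normalized count of Kdm4c (chromosome 4, 74242497 to 74405860, GRCm38) was 7125 and 6277 in Undiff and 1197 and 1179 in Day4. Both Day4 libraries lay far below both Undiff libraries, and the level fell 5.65-fold (log2 fold change -2.50 ± 0.06 SE, adjusted p = 4.7e-13, edgeR). Its paralog Kdm4b read 1504 and 1334 in Undiff and 3290.5 and 3128 in Day4, a 2.26-fold rise (log2 1.17 ± 0.06, adjusted p = 7.1e-10, edgeR), and Kdm4a rose 1.93-fold, from 3778 and 3780 to 7168 and 7379, just under the fold change minimum. Kdm4d was almost absent, with raw counts of 3 and 5 in Undiff and 31 and 61 in Day4. With the counts of each state summed (8 against 92), the library-scaled ratio was 9.14, with an exact 95% interval of 4.45 to 21.8 that covers counting error only.

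The composition of the KDM4 family was compared per length, as CPM per kilobase of annotated exon, because counts of genes of different length are not comparable. Kdm4c made up 60.4% and 58.1% of the summed level of the 4 paralogs in Undiff, and 11.4% and 11.2% in Day4. Kdm4a rose from 27.5% and 30.1% to 58.5% and 60.0%, and Kdm4b from 12.1% and 11.7% to 29.7% and 28.1%. The leading paralog was thus Kdm4c in both Undiff libraries and Kdm4a in both Day4 libraries. The summed level was 72.6 and 66.4 CPM per kilobase in Undiff and 64.8 and 65.0 in Day4. The direction of this small difference in the mean depends on the exon length used, since with the exons of all annotated transcripts the means were 56.0 and 56.9.

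The start-site sequences of 3 KDM4 genes are shown because these paralogs moved in opposite directions. They are the 30 bases directly upstream of each start in the RefSeq promoter table (GRCm38.p6), 5′ to 3′ on the gene's strand, with CpG dinucleotides in capitals. Kdm4c has 2 listed starts, and the counts do not show which was used.
Kdm4a, chr4:118180044-118180073, minus strand: ttggttagctgaggacctaaagccattctt
Kdm4c, first start, chr4:74242467-74242496, plus strand: ggatccagtggcatcactgaggcaatttat
Kdm4c, second start, chr4:74251849-74251878, plus strand: CGcaggcagaggcagccCGcacagcctgCG
Kdm4d, chr9:14500483-14500512, minus strand: cacaggctgaCGcagtgaccaatcagcaaa
The 300-base windows around these starts (250 bases before to 50 after) held 13, 0, 28 and 17 CpG, in the same order. Over the 32 windows of the 25 members in the table the median was 26.5, and over all 32851 windows it was 7. Motifs were searched on both strands. GGGCGG was in 20 of the 32 windows (62.5%, against 35.7% of all), among them the second Kdm4c window and that of Kdm4d. AGGTCA, the half-site of nuclear receptors including those of RA, was in 4 (12.5%, against 16.3%), among them the first Kdm4c window. TATAAA was in 0 of the 32 (13.6% of all). These matches are descriptions of the sequence and not of binding.

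**Figure D2:**
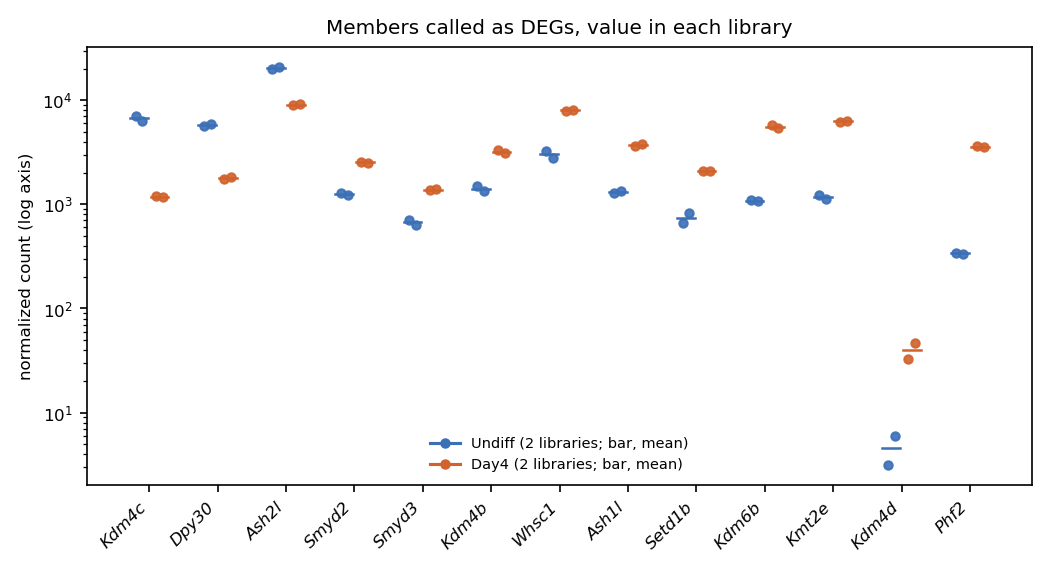
Normalized counts (log axis) of the 13 members called as DEGs in each of the 4 libraries, ordered by log2 fold change, with a bar at the mean of each state. The points of a state lie close together beside the distance between the states, except for Kdm4d, whose values lie between 3.13 and 46.8.

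Among the other H3K9 demethylases, Phf2 showed the highest log2 fold change of all members. It is a JmjC protein of the PHF family (chromosome 13, 48801750 to 48871119). Its normalized count was 343 and 336 in Undiff and 3666 and 3522 in Day4, a 10.6-fold rise (log2 3.40 ± 0.06 SE, adjusted p = 3.1e-14, edgeR). Its X-linked relative Phf8, which also acts on H4K20, read 1606 and 1559 against 1836 and 1839 and rose by 0.22 on the log2 scale. Per length, Phf2 accounted for 24.6% and 24.8% of the pair in Undiff and for 75.3% and 74.6% in Day4, so that the order of the pair turned over. Kdm3a, which removes mono- and dimethylation, had the lowest log2 fold change of the 5 enzymes listed for H3K9 alone and did not pass the test (6805 and 6807 against 6743 and 6593, log2 -0.03, 95% interval -0.12 to 0.06). Kdm3b (4876 and 4623 against 5366 and 5550) passed at 0.20 with TMM scaling, but its sign turned with upper-quartile factors. With those factors the log2 fold change of Phf8 was 0.01 and did not pass (adjusted p = 0.85, edgeR).

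The H3K27 demethylases Kdm6a (UTX, X-linked, also a subunit of the Kmt2c and Kmt2d complexes) and Kdm6b (JMJD3) moved apart. Kdm6b (chromosome 11, 69398508 to 69413675) read 1092 and 1070 in Undiff and 5739 and 5398 in Day4, a 5.15-fold rise (log2 2.36 ± 0.05 SE, adjusted p = 1.8e-13, edgeR). Kdm6a fell 1.39-fold, from 3109 and 3179 to 2248 and 2276 (log2 -0.47 ± 0.05, adjusted p = 7.4e-07, edgeR). The libraries of the states did not overlap for either gene. Per length, Kdm6a held 76.1% and 76.9% of the pair in Undiff and 30.5% and 32.1% in Day4, while the sum of the pair went from 18.4 and 18.6 to 33.2 and 31.9 CPM per kilobase.

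None of 5 H3K4 demethylases and none of 2 H3K36-only demethylases was a DEG. Of all genes tested 42.8% were DEGs, and of those with a mean of at least 5, 51.7%. On the adjusted p (edgeR) 4 of the 5 and 1 of the 2 passed, against 75.6% of all genes tested and 86.9% of those with a mean of at least 5. Kdm1a (LSD1), the flavin-dependent enzyme of the CoREST complex, read 13649 and 13413 in Undiff and 7956 and 8126 in Day4, a 1.68-fold fall (log2 -0.75 ± 0.04 SE, adjusted p = 7.3e-10, edgeR). Kdm1b (LSD2) went from 1198 and 1205 to 771 and 784 and fell by 0.63 on the log2 scale, and Kdm1a made up 94.4% to 94.9% of the pair per length in every library. The counts of Kdm1b are uncertain where strand was not used, since at least 498 exonic bases overlap Dek on the opposite strand. Of the KDM5 enzymes, which remove di- and trimethylation of H3K4, Kdm5b fell from 23924 and 23224 to 16567 and 16895 (log2 -0.49), Kdm5a rose from 4423 and 4542 to 6493 and 6573 (log2 0.54), and the X-linked Kdm5c, at 7320 and 7307 against 7545 and 7698, did not pass the test (log2 0.06, 95% interval -0.03 to 0.15). Kdm5c did pass with library totals (log2 0.13) and with upper-quartile factors (log2 -0.14), in opposite directions. Kdm5b went from 63.4% and 62.6% to 51.1% and 51.1% of the summed level of these KDM5 genes per length. Kdm5a went from 9.85% and 10.3% to 16.8% and 16.7%. With the longer exon models Kdm5c passed Kdm5b in Day4 (42.1% against 39.7%), so the leading KDM5 paralog in Day4 depends on the length used. Kdm2a, an H3K36 demethylase with a CpG-binding domain, rose 1.84-fold, from 4651 and 4799 to 8568 and 8813. Kdm8, a JmjC protein whose substrate is debated, read 144 and 116 against 156 and 171 (log2 0.33 ± 0.15, adjusted p = 0.055, edgeR). Its value was 0.50 without replicate 1 of Undiff, where it passed the test, and 0.19 without replicate 2 of Undiff and 0.22 without replicate 2 of Day4, where it did not, and it passed in 4 of 15 alternatives.

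**Figure D3:**
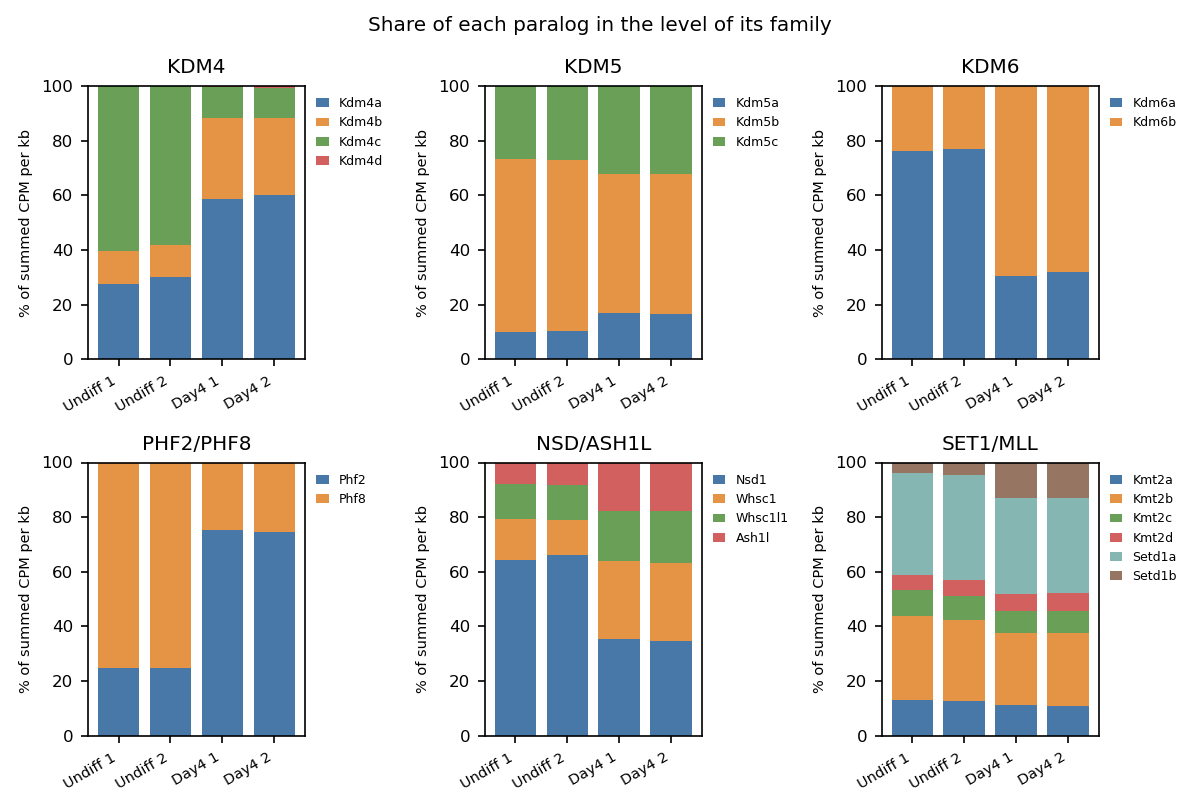
Share of each paralog in the summed CPM per kilobase of exon of the members of its family (y axis, 0 to 100%), per library, for 6 families. The leading member differs between the states for KDM4, KDM6 and PHF2/PHF8, and Nsd1 goes from 64.1% and 66.2% of its family to 35.3% and 34.7%. Uty, Kdm5d and Kdm7a, listed among the related genes, are not part of the sums. In mean normalized counts Uty was at 1333 in Undiff and 1322 in Day4, and Kdm7a at 2075 and 1346.

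The SET1/MLL enzymes methylate H3K4 within complexes built on the same core. Among these catalytic subunits, the H3K4me3 enzyme Setd1b read 659 and 828 in Undiff and 2068 and 2098 in Day4, a 2.82-fold rise (log2 1.49 ± 0.08 SE, adjusted p = 1.1e-09, edgeR). Its 2 Undiff libraries lay further apart than those of most members, yet both were well below Day4. The other 5 were close to their Undiff level. Kmt2a (MLL1) was the lowest of the H3K4 writers (4053 and 4188 against 3282 and 3316, log2 -0.32), Kmt2b, Kmt2c and Setd1a fell by 0.27, 0.27 and 0.19 on the log2 scale, and Kmt2d, at 2098 and 2275 against 2323 and 2397, did not pass the test (log2 0.11, 95% interval -0.01 to 0.23). Kmt2d passed in 3 of 15 alternatives, among them without replicate 2 of Undiff (log2 0.17), and its value was 0.055 without replicate 1 of Undiff and 0.058 without replicate 2 of Day4. Setd1b went from a mean of 4.34% to 12.9% of the 6 per length, and Setd1a remained the leading enzyme, with 35.0% to 38.4%.

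Outside these complexes, 3 further SET proteins are grouped with H3K4. Kmt2e (MLL5, whose own activity is not established, chromosome 5, 23434441 to 23504235) rose most of the H3K4 writers, from 1231 and 1118 to 6234 and 6376 (5.36-fold, log2 2.42 ± 0.06 SE, adjusted p = 1.7e-13, edgeR). Its exons overlap those of Srpk2 on the opposite strand by at least 972 bases, and Srpk2 itself changed by -0.18 on the log2 scale. The counts of Kmt2e are thus uncertain where strand was not used, and the effect of the overlap was not tested. Smyd3 read 704 and 635 against 1359 and 1407 (log2 1.04 ± 0.07). Setd7, which also has many non-histone substrates, rose 1.73-fold from 1657 and 1608 to 2766 and 2869. It shares at least 131 exonic bases with 5031434O11Rik on the opposite strand. The Smyd3 call rests on a value near the fold change minimum and was lost without replicate 2 of Undiff (log2 0.98) and without replicate 2 of Day4 (log2 0.99).

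All 4 core subunits, Ash2l, Wdr5, Rbbp5 and Dpy30, which every SET1/MLL enzyme shares, fell. All 4 passed on the adjusted p (edgeR), against 37.7% of all genes tested that passed in this direction. Of the 16472 genes with a mean of at least 5, 7004 did so. By the DEG rule 2 of the 4 core subunits were lower, against 20.6% of all genes tested and 24.9% of those with a mean of at least 5. Dpy30 (chromosome 17, 74299474 to 74323944) went from 5624 and 5975 to 1755 and 1834 (3.23-fold lower, log2 -1.69 ± 0.05 SE, adjusted p = 2.6e-12, edgeR). Ash2l (chromosome 8, 25815996 to 25847694) went from 19821 and 20898 to 8915 and 9114 (2.26-fold lower, log2 -1.18 ± 0.04, adjusted p = 1.2e-11, edgeR). The paper reports differential exon usage in Ash2l between these states, and exon usage was not examined here. Wdr5, at 8734 and 8601 against 4288 and 4547, fell 1.96-fold and missed the fold change minimum with TMM scaling, and became a DEG without replicate 2 of Day4 (log2 -1.05). Rbbp5 fell 1.42-fold, from 3547 and 3675 to 2534 and 2539. The summed level of the core was 390 and 406 CPM per kilobase in Undiff and 167 and 173 in Day4, and that of the 6 catalytic subunits was 49.6 and 53.4 against 48.0 and 49.1. The ratio of the sums went from 7.85 and 7.61 to 3.48 and 3.52. With the exons of all annotated transcripts its mean went from 6.03 to 2.71, and Dpy30 in place of Ash2l led the core, with 47.5% against 21.3% in Undiff and 35.2% against 22.6% in Day4.

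**Figure D4:**
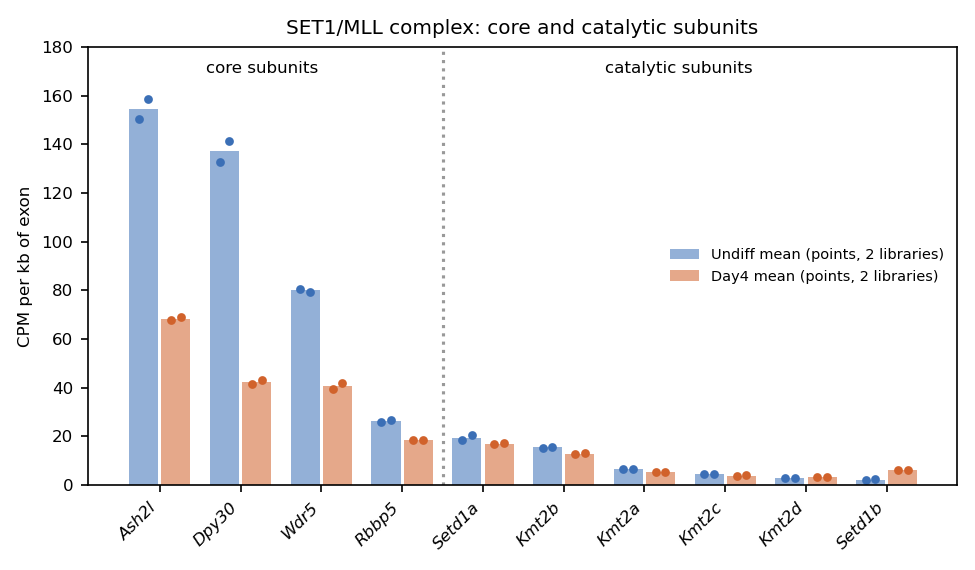
Level in CPM per kilobase of exon of the 4 core subunits (left) and the 6 catalytic subunits (right) of the SET1/MLL complexes, as the mean of each state (bars) and the 2 libraries (points). Ash2l stands at 155 in Undiff and 68.4 in Day4, whereas no catalytic subunit exceeds 19.5 in the mean of either state.

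The H3K36 writers that place mono- and dimethylation changed in composition. Whsc1 (Nsd2, chromosome 5, 33820725 to 33897975) rose 2.63-fold, from 3276 and 2809 to 7917 and 8137 (log2 1.40 ± 0.06 SE, adjusted p = 1.1e-10, edgeR). Ash1l (chromosome 3, 88950622 to 89079375) rose 2.80-fold, from 1297 and 1351 to 3638 and 3773 (log2 1.49 ± 0.05, adjusted p = 1.2e-11, edgeR). Whsc1l1 (Nsd3) rose 1.90-fold, from 2452 and 2488 to 4552 and 4806, under the minimum, while Nsd1 fell 1.44-fold, from 12148 and 12664 to 8561 and 8627. Nsd1 was thus the only writer of this class to pass the test in the lower direction. The summed level of these 4 genes per length went from 37.1 and 37.5 to 47.4 and 48.7 CPM per kilobase, with Whsc1 at 15.2% and 12.9% in Undiff and 28.7% and 28.7% in Day4. Exons of Whsc1 and Ash1l overlap those of Nelfa and Dap3 on the opposite strand by at least 51 and 35 bases. These neighbours changed by -0.15 and -0.31 on the log2 scale. The effect of these overlaps on the counts was not tested.

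Setd2, the enzyme of H3K36 trimethylation, read 6652 and 7440 in Undiff and 6294 and 6738 in Day4. These values overlap, and the change was not called (log2 -0.11, 95% interval -0.23 to 0.01, adjusted p = 0.086, edgeR). Setd2 lay near the p threshold, which it passed in 9 of 15 alternatives, and without 1 library its value ranged from -0.03 (without replicate 2 of Undiff) to -0.19 (without replicate 1 of Undiff or replicate 2 of Day4, where it passed). Setd5 and Setd3, whose histone activity is debated or, for Setd3, replaced by a role in actin methylation, did not pass either (log2 -0.02, 95% interval -0.10 to 0.06, and log2 0.07, 95% interval -0.03 to 0.17). Smyd2 read 1284 and 1232 against 2576 and 2475 (2.00-fold, log2 1.00 ± 0.05, adjusted p = 1.1e-09, edgeR), at the fold change minimum itself, and its call was lost in 9 of 16 alternatives. Dot1l, the H3K79 enzyme, fell 1.15-fold, from 3268 and 3191 to 2777 and 2861 (log2 -0.20 ± 0.05, adjusted p = 0.0020, edgeR).

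The change within families was also measured as the log2 ratio of normalized counts of 2 paralogs in the same library. This ratio is free of library scaling. Gene length cancels in it between states if each paralog uses the same exons in both, which was not examined. The ratio of Kdm4a to Kdm4c was -0.92 and -0.73 in Undiff and 2.58 and 2.65 in Day4, a difference of 3.44. That of Phf8 to Phf2 went from a mean of 2.22 to -0.97, that of Kdm6a to Kdm6b from 1.51 and 1.57 to -1.35 and -1.25, and that of Nsd1 to Whsc1 from 1.89 and 2.17 to 0.11 and 0.08. In these 4 pairs the libraries of a state lay close together beside the distance between the states. The ratio of Setd1a to Setd1b fell by 1.69, and that of Kdm5a to Kdm5b rose by 1.04. Among the 13 pairs examined, Smyd2 to Smyd3 was the only ratio whose libraries overlapped between states (0.87 and 0.96 against 0.92 and 0.81). The 2-sided exact permutation test over 2 against 2 libraries cannot go below p = 0.333 (0.361 after Benjamini-Hochberg adjustment over the 13 pairs), which the other 12 pairs reached. The test therefore cannot single out any pair. Libraries of the states did not overlap even where the difference was small, as for Kmt2a to Kmt2b (-0.05). The share of such ratios over other gene pairs was not computed.

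Partners and relatives of the members were listed as 54 further genes in 6 groups, of which 9 were DEGs higher and 9 lower in Day4 (33.3% together, against 42.8% of all genes tested and 51.7% of those with a mean of at least 5). On the adjusted p, 49 passed (90.7%, against 75.6% and 86.9%). Of 11 partners of LSD1 and LSD2, 4 were higher and 1 lower. The CoREST scaffold Rcor3 showed the largest change, from 176 and 175 to 1028 and 1043 (log2 2.56), and, named after their values were seen, Rcor1 rose by 1.36 and Rcor2 fell by 1.08 on the log2 scale. Of 11 partners of the SET1/MLL complexes, 2 were higher, led by Hcfc2 (206 and 233 against 943 and 909, log2 2.08) with Ncoa6 as the other. The 1 that was lower, Bod1l, lay at the fold change minimum itself. On the adjusted p (edgeR) 7 of these 11 partners were higher and 4 lower, so they did not share the direction of the 4 core subunits. None of 4 KDM5 partners was a DEG, although all 4 passed on the adjusted p (edgeR). Of 7 recruiters and readers of H3K36 methylation, the mismatch repair protein Msh6 was lower (26934 and 27969 against 6295 and 6237, log2 -2.13) and Zmynd11 was higher (log2 1.79). Of 4 Dot1l partners 2 were higher, Mllt3 and Mllt1, with Mllt1 at 1375 and 1467 against 5060 and 5006 (log2 1.83). Among 17 other JmjC and SET genes, 6 were lower and 0 higher by the DEG rule. Of all genes tested, 20.6% were DEGs lower and 22.2% higher, and of those with a mean of at least 5, 24.9% and 26.8%. On the adjusted p alone 11 of the 17 were lower and 2 higher (edgeR), against 37.7% and 37.9% of all genes tested. Of the 16472 genes with a mean of at least 5, 7004 passed lower and 7305 higher. Setd6 was the lowest of the 17 (2849 and 2802 against 497 and 534, log2 -2.45). Jarid2, the JmjC protein of Polycomb complexes, named after its values were seen, fell from 25739 and 28111 to 7417 and 7324.

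**Figure D5:**
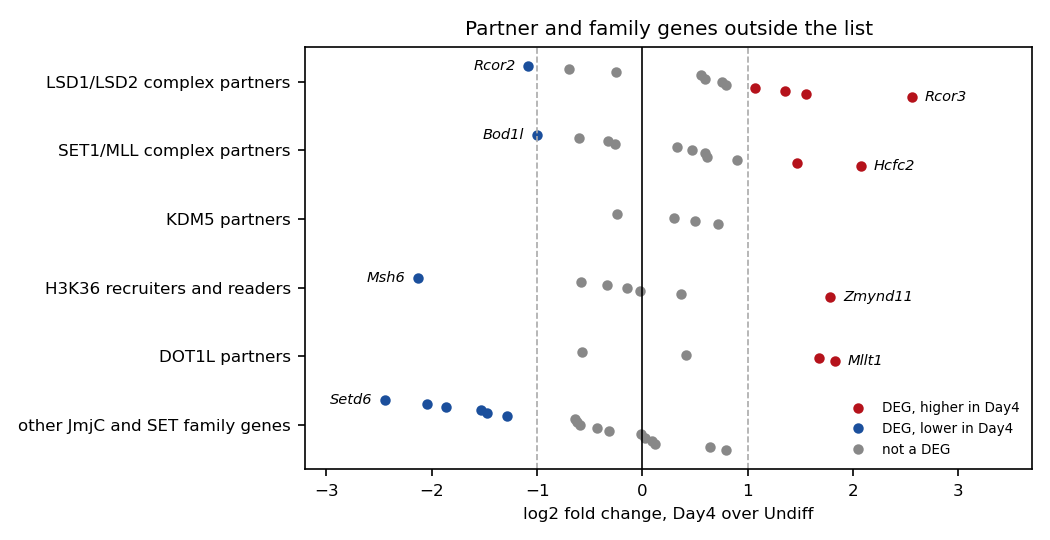
The log2 fold change of Day4 over Undiff (x axis) of 54 partner and family genes in 6 groups (y axis), with red and blue points for DEGs and dashed lines at -1 and 1. The group of other JmjC and SET genes has 6 DEGs below -1 and none above 1, and the KDM5 partners have none on either side.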

How the data were processed

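The 4 Illumina TruSeq libraries were trimmed with cutadapt, aligned to mm10 with STAR 2.4.2a and counted per gene with htseq-count by the authors. The deposited values are raw whole-number counts of uniquely aligned fragments for each gene symbol, counted with regard to strandedness according to the methods. These name Direct RNA as strand-specific and leave strand unused for TruSeq exon counts, without an explicit option for TruSeq gene counts. Rows that name no gene were left out of totals and tests: fragments on no gene were 13.2% at most and ambiguous fragments 1.84% to 1.91%.

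Counts were scaled by TMM (edgeR 4.0.16, R 4.3.3) and normalized counts refer to the geometric mean of the 4 effective totals. The 19891 genes counted at least once were fitted by glmQLFit (legacy estimation off) and tested by glmQLFTest with Benjamini-Hochberg adjustment. Standard errors (SE) were derived from the F statistic. The thresholds for DEGs are those of the methods of the study. In simulated counts, every gene had the same dispersion, and the changed genes were drawn from those with a mean count of at least 50. Of 100 genes changed by a log2 fold change of 1.5, 100 were recovered among 19513, and 1 unchanged gene was called. These settings do not test calls near the fold change minimum or at low counts. Exon lengths and positions are from GENCODE vM21 (GRCm38), matched by symbol, 2 of them through a newer one. It is not the annotation the authors counted on. Every DEG and the extremes of each residue class are named. Members, gene lists and tests were chosen with earlier results of these data known. The partner genes are counted in full, and 1 of them is not reported here by name. Alternatives were other scalings, DESeq2 1.42.0, other filters, thinning, a test against a fold change of 2, a replicate block and leaving out each library.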

Additional observations from a re-analysis of the deposited data

How the results depend on the processing

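The limits are 2 libraries a state, a single cell line, bulk RNA of mixed cells and a strand option not named for gene counts, and at the common dispersion of these libraries small changes pass the test. The number of members called ranged from 11 to 14 over 16 alternatives, and 27 of 39 members had the same direction and call in all of them. At most 4 calls changed in any fit. Smyd2 was lost in 9 alternatives, Smyd3 in 4, and Wdr5 was gained in 7. Kdm4a was gained with library totals (log2 1.01), and Kdm4d was lost with a minimum mean of 50, under which the DEGs lower in Day4 over all genes numbered 2721 in place of 4101. Upper-quartile factors moved the median log2 fold change of genes with a mean of at least 5 from 0.03 to -0.18, and with it Kdm4b (0.97), Smyd2 (0.80) and Smyd3 (0.84) fell under the minimum. By their construction they shift every gene alike, and Kdm5c (-0.14), Kdm3b (-0.0034), Kmt2d (-0.091) and Setd3 (-0.13) turned sign. Kdm5c and Setd3 passed the test (edgeR) lower with upper-quartile factors and higher with library totals (0.13 and 0.14). Kdm3a (-0.23) and Setd5 (-0.22) also passed lower with upper-quartile factors. Kdm3a and Setd5 turned sign with library totals (0.037 and 0.048) and with scaling to the qRT-PCR normalizers Pum2, Sec24d and Copg1 (0.0040 and 0.015). Leaving out each library in turn, the difference in the ratio of Smyd2 to Smyd3 ranged from -0.10 to 0.012, with the sign turned without replicate 2 of Undiff (0.0027) and without replicate 2 of Day4 (0.012). With the replicate number as a block, 10 members were higher and 3 lower, the same 13, and 33 passed on the adjusted p, Setd2 being the addition. The adjusted p of Setd2 (edgeR) was 0.029 under the block and 0.00016 to 0.59 over the 15 alternatives that test a change from 0, DESeq2 included. The replicate numbers do not pair the samples by any source, and deviations of same-numbered libraries from their state means correlated at -0.01. Legacy estimation was turned off in the main fit after the default had been run on these data. That default was kept as an added alternative and called the same 13 members. Exon lengths of all annotated transcripts were also chosen after seeing the data. The cause of the other changes was not tested.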

Other observations

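Of the X-linked members, Kdm5c and Kdm6a have Y-linked relatives, which were listed among the related genes. Kdm5d read 98.0 and 92.1 normalized counts in Undiff and 168 and 163 in Day4 (log2 0.79, edgeR adjusted p = 0.00019), and Uty read 1371 and 1295 against 1378 and 1265 (log2 -0.02, adjusted p = 0.81). Kdm5d thus rose without reaching the fold change minimum, and Uty did not pass the test.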
